A study of Homo sapiens with 6 samples.

Results

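The genes described here are 48 interferon-stimulated genes, nucleic acid sensors, STAT and IRF factors and type I interferon receptor genes, chosen by name among 58336 gene identifiers. Their RNA was measured by RNA-seq in 12Z, an established line of human endometriotic epithelial cells. Of the 6 libraries, 3 came from cells transfected with 50 nM of an siRNA against SMARCA4 (siBRG1) and 3 from cells that received 50 nM of a non-targeting siRNA (the control group). BRG1, the product of SMARCA4, is the motor subunit of SWI/SNF complexes, which move nucleosomes, and the comparison asked which transcripts differ when it is depleted. Both groups were grown in 10% serum, moved to 0.5% serum for the last day and harvested 72 h after transfection, so every library comes from cells given a double-stranded RNA. The extraction protocol also speaks of drug or vehicle treatment, and no sample label names a drug.

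Type I interferon binds a receptor of the IFNAR1 and IFNAR2 chains, and receptor-bound kinases then activate STAT factors. STAT2 joins IRF9 in a complex that binds the interferon-stimulated response element in the promoters of target genes. Those targets include antiviral effectors (IFIT, IFITM, MX and OAS proteins), the sensors of foreign RNA that start interferon production (RIG-I, encoded by DDX58, MDA5, encoded by IFIH1, and TLR3), and the factors of the response itself. Epithelial cells carry many of these transcripts at a low level without any infection.

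All 3 control libraries are marked in the labels as samples of an earlier deposit that were analysed again, and no siBRG1 library is, so batch and knockdown cannot be told apart for any value below. Counts assigned to genes ranged from 12391161 to 13369692 per siBRG1 library and from 40228678 to 49720320 per control library, so counts of low genes are less precise in siBRG1. Reads mapping to several places made up 18.5 to 21.5% of siBRG1 reads and 9.57 to 10.0% of control reads, and those on no gene feature 3.85 to 4.20% and 12.8 to 13.6%. Genes with HIST symbols, whose replication-dependent members lack a poly(A) tail, took 0.0161 to 0.0186% of gene counts in siBRG1 and 1.04 to 1.09% in control, so the groups differ in more than depth. The part of these differences in the results was not tested. Epithelial markers moved both ways: of 6, 3 rose (KRT8, EPCAM and CDH1), 2 fell (KRT7 and KRT19) and KRT18 did not pass, and they summed to 3476 to 3733 CPM in siBRG1 and 3935 to 4020 CPM in control. KRT8 stood at 1655 ± 46.3 CPM (SD, n = 3) in siBRG1 and 1556 ± 12.8 CPM in control, and KRT18 at 1296 ± 93.0 CPM and 1343 ± 22.9 CPM. KRT7 had a log2 fold change of −2.40 and KRT19 of −0.54. EPCAM and CDH1 were low in every library, at most 1.80 and 6.98 CPM, with log2 fold changes of 2.63 and 0.93. The 7 immune markers, none of which fell and of which 1 rose (CD14), summed to 10.3 to 11.3 CPM in siBRG1 and 4.26 to 5.89 CPM in control, with CD3E at 0 counts in all 6 libraries and PTPRC below 1 CPM in each. The 5 stromal markers, of which 4 rose and 1 fell, summed to 4491 to 4825 CPM and 2659 to 2834 CPM. The 3 endothelial markers summed to 2.35 to 4.01 CPM and 2.39 to 2.96 CPM. Among them CDH5 rose (log2 fold change 1.96), VWF fell (−0.69) and PECAM1 was not tested. The part of these markers in the results was not tested. In bulk RNA, a change in the number of cells that express a gene and a change in RNA per cell cannot be told apart.

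Levels are in CPM, the count of a gene scaled to the library total after TMM normalisation. A log2 fold change is the log2 of the siBRG1 level over the control level and is given with its standard error (SE). Whether replicates were separate cultures is not stated in the labels, so each p-value reflects only how far these libraries differ, which may be technical. SMARCA4, the siRNA target, stood at 60.5, 78.9 and 50.6 CPM in siBRG1 and at 244, 266 and 262 CPM in control (log2 fold change −2.03 with SE 0.161, adjusted p = 0.000267).

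Of the 48 genes, 45 had enough counts to be tested. At an adjusted p under 0.05, 37 of the 45 rose and 6 fell in siBRG1, whereas 36.1% of all 15830 genes tested rose and 36.5% fell. A rise of at least 2-fold was found for 24 of the 45, against 10.4% of all genes tested, and no fall of that size was found, against 11.1%. The median log2 fold change of the 45 was 1.09, and that of all genes tested was −0.01. In 44 of the 45 the CPM of the groups did not overlap, as was so for 74.3% of all genes tested. IFI27, RSAD2 and BST2 passed the count filter only through their siBRG1 libraries and so had to differ. All 3 are included in the 37, the 24, the 44 and the median given above. Of the other 42 tested genes 34 rose, 6 fell and 2 did not pass. The summed level of all 48 genes was 2088 to 2193 CPM in siBRG1 and 1605 to 1652 CPM in control. Within these sums IFITM3 alone stood at a mean of 334 CPM in siBRG1 and 96.4 CPM in control.

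**Figure D1:**
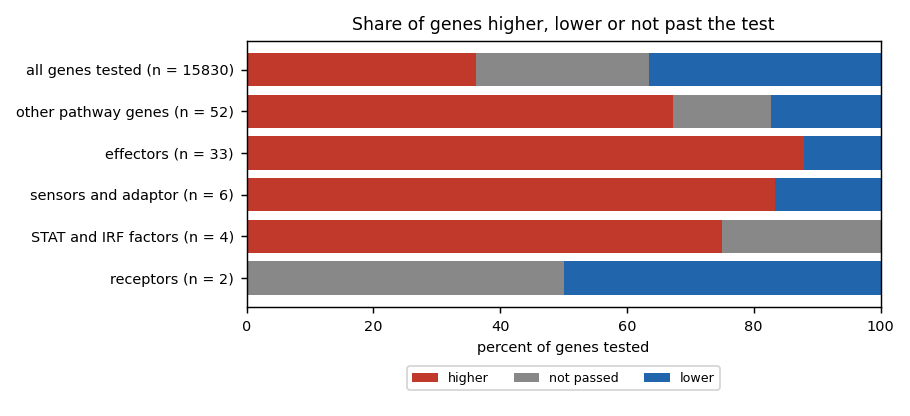
Share of tested genes that rose (red), fell (blue) or did not pass at an adjusted p under 0.05 (grey), for all 15830 genes tested, 52 other genes of the pathway, and the 4 roles. Of the effectors 29 of 33 rose, while neither of the 2 receptor genes did. The 29 include IFI27, RSAD2 and BST2, which could be tested only because they were higher in siBRG1.

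The roles differed in their counts, which are set beside the 36.1% of all genes tested that rose and the 36.5% that fell. Of 33 effectors tested 29 rose and 4 fell, and the median log2 fold change was 1.21. The 29 include IFI27, RSAD2 and BST2, which could be tested only because they were higher in siBRG1. They also enter that median. Of 6 sensors and adaptors 5 rose and 1 fell, with a median of 0.91. Of 4 STAT and IRF factors tested 3 rose and 1 did not pass, with a median of 0.31. Of the 2 receptor genes 1 fell and 1 did not pass. No test of the difference between roles was made, since genes are not replicates. Role also went with control level: the 16 tested genes below 1 CPM per kilobase of exon in control were effectors, except TLR3. The part of control level in the counts by role was not tested.

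Promoter sequences are shown because a response element in them is what many of these genes have in common. Promoters on GRCh38.p14, from 250 bases before to 50 after the RefSeq start, were listed for 37 of the 48 genes, taking the first start listed for each gene. The response element core searched was GAAA, any 2 bases and GAAA again, on either strand. It was found in 22 of these 37 promoters (59.5%) and in 3.65% of 27305 promoters of all genes. With every listed start counted, these were 24 of 37 genes (64.9%) and 4.38%. Matches to this core can overlap each other, as in ISG15 and BST2. The core of the gamma-activated site, TTCNNNGAA, was found in 9 of the 37 (24.3%) and in 7.88% of all promoters, and in 3 of the 37 it overlapped the first motif. Of 28 promoters of genes that rose, 17 held the response element core, as did 4 of the 6 promoters of genes that fell. The core of the gamma-activated site was in 8 of these 28 and in 0 of these 6, and no test of either split was made. A match is a description of the letters and not evidence of binding.

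The stretches below run 5′ to 3′ on the strand of the gene, with matches to the response element core or its reverse complement (TTTC, any 2 bases, TTTC) in capitals. The first 7 belong to genes that rose. They lie at chr11:313985-314058 (IFITM1, plus strand), chr11:320871-320927 (IFITM3, minus), chr14:94110613-94110665 (IFI27, plus), chr19:17405730-17405775 (BST2, minus), chr1:78649756-78649795 (IFI44, plus), chr10:89392492-89392544 (IFIT1, plus) and chr1:1013369-1013414 (ISG15, plus). The last 4 belong to genes that fell, at chr10:89414508-89414588 (IFIT5, plus), chr2:37156962-37157001 (EIF2AK2, minus), chr3:122564317-122564356 (DTX3L, plus) and chr7:93118091-93118130 (SAMD9, minus).
IFITM1: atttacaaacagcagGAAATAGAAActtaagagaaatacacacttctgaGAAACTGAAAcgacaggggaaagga
IFITM3: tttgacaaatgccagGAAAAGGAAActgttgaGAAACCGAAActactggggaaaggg
IFI27: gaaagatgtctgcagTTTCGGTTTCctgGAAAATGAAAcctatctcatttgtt
BST2: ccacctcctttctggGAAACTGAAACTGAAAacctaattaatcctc
IFI44: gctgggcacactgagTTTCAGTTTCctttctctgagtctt
IFIT1: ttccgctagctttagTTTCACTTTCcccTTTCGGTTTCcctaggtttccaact
ISG15: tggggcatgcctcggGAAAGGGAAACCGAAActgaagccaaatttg
IFIT5: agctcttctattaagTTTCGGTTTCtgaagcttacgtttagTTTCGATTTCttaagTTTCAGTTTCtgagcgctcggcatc
EIF2AK2: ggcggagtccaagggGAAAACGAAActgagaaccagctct
DTX3L: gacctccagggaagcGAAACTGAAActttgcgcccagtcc
SAMD9: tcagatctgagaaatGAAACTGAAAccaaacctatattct
IFIT1, which rose, and IFIT5, which fell, hold 2 and 3 matches, so the presence of this core did not separate the directions.

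**Figure D2:**
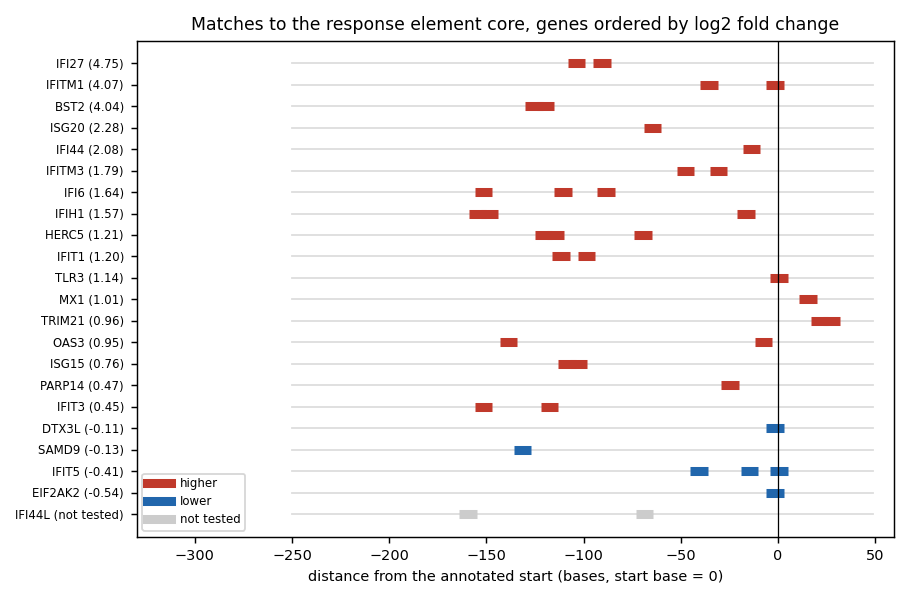
Position of each match to the response element core (GAAA, any 2 bases, GAAA), on either strand, in the 22 promoters that hold it, in bases from the annotated start (x axis). Genes are ordered by log2 fold change (in brackets), and colour gives the call. The 4 genes that fell (DTX3L, SAMD9, IFIT5 and EIF2AK2) hold matches in the same span as the 17 that rose. The fitted value of IFI27 rests on 2 control counts.

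IFIT proteins bind RNA that lacks the cap modifications of the host. Of the 4 IFIT genes, which lie in a cluster on chromosome 10, 3 rose and 1 fell. IFIT1 (chromosome 10, 89392546 to 89406486 on GRCh38, as all gene positions here) stood at 71.3, 72.6 and 76.3 CPM in siBRG1 and 33.6, 31.0 and 31.3 CPM in control (log2 fold change 1.20 with SE 0.0567, adjusted p = 4.02e-17). Every siBRG1 library lay more than 2-fold above every control library. IFIT2 stood at 33.0, 30.1 and 40.1 CPM against 14.9, 14.5 and 15.7 CPM (log2 fold change 1.20 with SE 0.0870, adjusted p = 6.47e-13). IFIT3 rose less, from 30.2, 27.0 and 29.3 CPM in control to 37.7, 37.5 and 43.1 CPM in siBRG1 (log2 fold change 0.45 with SE 0.0694, adjusted p = 1.61e-06). IFIT5 went the other way, at 35.3, 37.3 and 41.6 CPM in siBRG1 and 50.1, 50.9 and 51.0 CPM in control, without overlap (log2 fold change −0.41 with SE 0.0622, adjusted p = 1.05e-06).

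IFITM proteins sit in membranes and block the entry of enveloped viruses. All 3 IFITM genes rose, and together they went from 123 to 125 CPM in control to 398 to 426 CPM in siBRG1, the largest gain in summed level of any effector family here. IFITM3 (chromosome 11, 319669 to 327537) stood at 318, 336 and 347 CPM in siBRG1 and 97.2, 96.4 and 95.6 CPM in control (log2 fold change 1.79 with SE 0.0404, adjusted p = 7.71e-25). IFITM2 stood at 74.0, 74.9 and 72.4 CPM against 26.1, 28.2 and 26.4 CPM (log2 fold change 1.46 with SE 0.0572, adjusted p = 5.19e-19). IFITM1 was nearly silent in control, at 0.371, 0.510 and 0.497 CPM, and reached 6.41, 9.88 and 6.82 CPM in siBRG1 (log2 fold change 4.07 with SE 0.243, adjusted p = 7.94e-15). These genes are close copies of each other, and 32.5% of the annotated exon bases of IFITM1 are shared with transcripts of IFITM2 on the same strand. Their single values are therefore uncertain, beside the larger share of reads mapping to several places in siBRG1.

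OAS proteins make a short oligoadenylate that switches on the nuclease RNase L, while OASL has lost that activity and acts with RIG-I. All 4 genes of the family rose. OAS1 (chromosome 12, 112906777 to 112933222) stood at 6.41, 6.98 and 9.10 CPM in siBRG1 and 0.432, 0.459 and 0.696 CPM in control (log2 fold change 3.82 with SE 0.237, adjusted p = 1.75e-14). OASL stood at 5.61, 7.60 and 10.1 CPM against 0.782, 1.61 and 1.77 CPM (log2 fold change 2.51 with SE 0.242, adjusted p = 9.06e-10). OAS2 stood at 2.04, 4.78 and 5.33 CPM in siBRG1, with replicate 1 lowest, and at 0.638, 0.510 and 1.24 CPM in control (log2 fold change 2.34 with SE 0.328, adjusted p = 5.92e-07), without overlap. OAS3 was the most abundant of the family per length of exon, at 12.0 CPM per kilobase in siBRG1 and 6.23 in control, and rose by 0.95 on the log2 scale (adjusted p = 2.64e-16). Its libraries stood at 96.0, 99.2 and 103 CPM in siBRG1 and 51.2, 50.8 and 52.3 CPM in control. Its change was the smallest of the 4.

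MX1 and MX2 encode dynamin-like GTPases that act on incoming viral particles. MX1 stood at 15.4, 19.99 and 24.1 CPM in siBRG1 and 9.20, 8.998 and 11.3 CPM in control (log2 fold change 1.01 with SE 0.122, adjusted p = 4.17e-08). MX2 stood at 4.15, 5.80 and 5.18 CPM against 2.31, 1.71 and 2.46 CPM (log2 fold change 1.21 with SE 0.197, adjusted p = 3.37e-06). In both genes every siBRG1 library lay above every control library.

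ISG15 is a ubiquitin-like protein, HERC5 and HERC6 belong to the ligase family that attaches it in humans or in mice, and USP18 removes it and also damps the receptor. All 4 of these genes rose. ISG15 (chromosome 1, 1001138 to 1014540) stood at 16.5, 21.0 and 19.9 CPM in siBRG1 and 11.2, 11.8 and 10.8 CPM in control (log2 fold change 0.76 with SE 0.0976, adjusted p = 6.42e-08). HERC5 stood at 4.44, 5.02 and 7.61 CPM against 2.47, 2.19 and 2.69 CPM (log2 fold change 1.21 with SE 0.193, adjusted p = 2.70e-06). USP18 was at 3.13, 2.43 and 4.55 CPM in siBRG1, where the libraries spanned a wider range than the difference of the group means, and at 1.65, 1.58 and 1.52 CPM in control (log2 fold change 1.09 with SE 0.235, adjusted p = 0.000165). HERC6 rose least, from 5.50, 5.99 and 5.47 CPM in control to 8.01, 9.64 and 7.76 CPM in siBRG1 (log2 fold change 0.58 with SE 0.132, adjusted p = 0.000282).

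**Figure D3:**
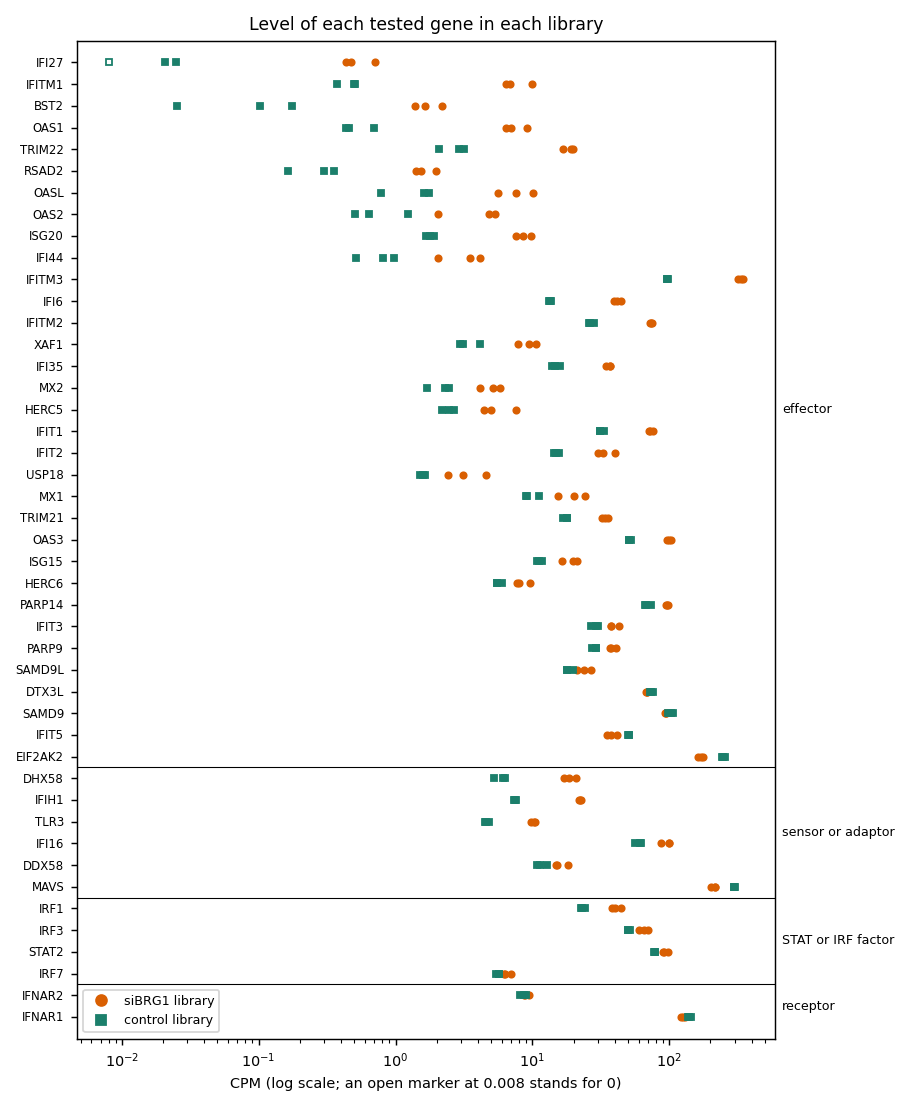
CPM (log axis) of the 45 tested genes in each of the 3 siBRG1 libraries (orange circles) and 3 control libraries (green squares), by role and ordered by change. In IFITM1, OAS1 and TRIM22 the groups stand far apart from a low control level, whereas in DTX3L, SAMD9 and IFNAR1 they lie next to each other. BST2, RSAD2 and IFI27 could be tested only because they were higher in siBRG1.

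Of 5 effector genes with IFI symbols (IFI6, IFI27, IFI35, IFI44 and IFI44L), 4 were tested and all 4 rose. IFI27 is among these only because it was higher in siBRG1. IFI6, a mitochondrial and endoplasmic reticulum protein that limits cell death and flavivirus replication, stood at 44.2, 41.5 and 39.6 CPM in siBRG1 and 13.3, 13.5 and 13.6 CPM in control (log2 fold change 1.64 with SE 0.0730, adjusted p = 1.02e-17). IFI35 stood at 36.8, 37.0 and 34.3 CPM against 14.0, 15.8 and 14.6 CPM (log2 fold change 1.29 with SE 0.0762, adjusted p = 6.48e-15). IFI44 was lower, at 2.04, 4.15 and 3.53 CPM against 0.515, 0.816 and 0.970 CPM (log2 fold change 2.08 with SE 0.302, adjusted p = 5.60e-07). IFI27 had 21 counts in all in siBRG1 and 2 in control, a ratio per library total of 36.1 with a 95% counting interval of 8.83 to 318. It passed the count filter only through siBRG1, and it was not tested without siBRG1 replicate 3 or without any 1 of the control libraries. IFI44L was not tested. It had 11 counts against 2, a ratio of 18.9 (95% counting interval 4.13 to 176), and siBRG1 replicate 1 held none of the 11. Such intervals cover counting error only.

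TRIM22 and ISG20 rose most among the remaining effectors that did not pass the count filter through siBRG1 alone. TRIM22 (chromosome 11, 5689689 to 5737089), an antiviral ubiquitin ligase, stood at 16.8, 19.8 and 19.1 CPM in siBRG1 and 2.90, 2.09 and 3.16 CPM in control (log2 fold change 2.76 with SE 0.136, adjusted p = 1.06e-16). TRIM21, which binds antibody-coated virus in the cytosol, rose by less, from 16.7, 17.8 and 17.9 CPM in control to 33.7, 35.5 and 32.5 CPM in siBRG1 (log2 fold change 0.96 with SE 0.0734, adjusted p = 2.10e-12). ISG20, a 3′ to 5′ RNA exonuclease, stood at 8.60, 9.80 and 7.53 CPM against 1.77, 1.66 and 1.92 CPM (log2 fold change 2.28 with SE 0.168, adjusted p = 8.92e-13). BST2, or tetherin, which holds budding virus at the cell surface, went from 0.103, 0.0255 and 0.174 CPM in control to 1.38, 2.19 and 1.65 CPM in siBRG1 and had a log2 fold change of 4.04 (SE 0.474) from 13 control counts in all. No p is given for it, since it passed the count filter only through siBRG1. XAF1, which promotes cell death, rose from 4.12, 2.96 and 3.11 CPM in control to 7.87, 10.6 and 9.49 CPM in siBRG1 (log2 fold change 1.44 with SE 0.158, adjusted p = 3.43e-09).

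RSAD2 and CMPK2 are neighbours on chromosome 2 whose nearest RefSeq starts lie 22 bases apart on opposite strands. RSAD2 encodes viperin, which makes a chain-terminating nucleotide, and stood at 1.53, 1.41 and 1.96 CPM in siBRG1 and 0.165, 0.357 and 0.298 CPM in control (log2 fold change 2.59, SE 0.393). No p is given for RSAD2, which could be tested only because it was higher in siBRG1. CMPK2, a mitochondrial nucleotide kinase, was not tested, with 16 counts against 21 and a ratio per library total of 2.62 (95% counting interval 1.28 to 5.27). Its CPM overlapped between the groups.

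EIF2AK2 encodes PKR, a kinase that is switched on by double-stranded RNA and stops translation. Its level in control was 23.0 CPM per kilobase of exon. It fell, at 170.3, 161 and 177 CPM in siBRG1 and 253, 241 and 247 CPM in control, with no overlap (log2 fold change −0.54 with SE 0.0410, adjusted p = 1.36e-12). With trends of each library with GC content and length removed its log2 fold change was −0.24, still past the test.

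PARP9 and DTX3L encode partners of an ADP-ribosylation and ubiquitin ligase complex, and their nearest RefSeq starts lie 38 bases apart on opposite strands. PARP9 rose, from 27.4, 29.3 and 28.9 CPM in control to 37.5, 36.8 and 40.7 CPM in siBRG1 (log2 fold change 0.43 with SE 0.0660, adjusted p = 1.69e-06). DTX3L stood at 67.8, 68.7 and 68.5 CPM in siBRG1 and 75.5, 74.2 and 72.0 CPM in control (log2 fold change −0.11 with SE 0.0491, adjusted p = 0.0399), a small fall whose call was lost under 8 of 12 alternatives. PARP14, a related mono-ADP-ribosyltransferase, rose from 74.0, 67.0 and 67.4 CPM in control to 97.5, 94.5 and 96.4 CPM in siBRG1 (log2 fold change 0.47 with SE 0.0499, adjusted p = 2.11e-09), and by 0.73 on the log2 scale with GC and length trends removed. SAMD9 and SAMD9L, neighbours on chromosome 7 that restrict poxviruses, also split. SAMD9L stood at 21.3, 23.7 and 26.8 CPM in siBRG1 and 19.7, 18.0 and 18.0 CPM in control (log2 fold change 0.36 with SE 0.0854, adjusted p = 0.000447), and its log2 fold change was 0.56 with GC and length trends removed. SAMD9 stood at 94.3, 94.0 and 93.3 CPM against 106, 98.0 and 104 CPM (log2 fold change −0.13 with SE 0.0462, adjusted p = 0.0143), a fall that was not called with unstranded counts or with GC and length trends removed.

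**Figure D4:**
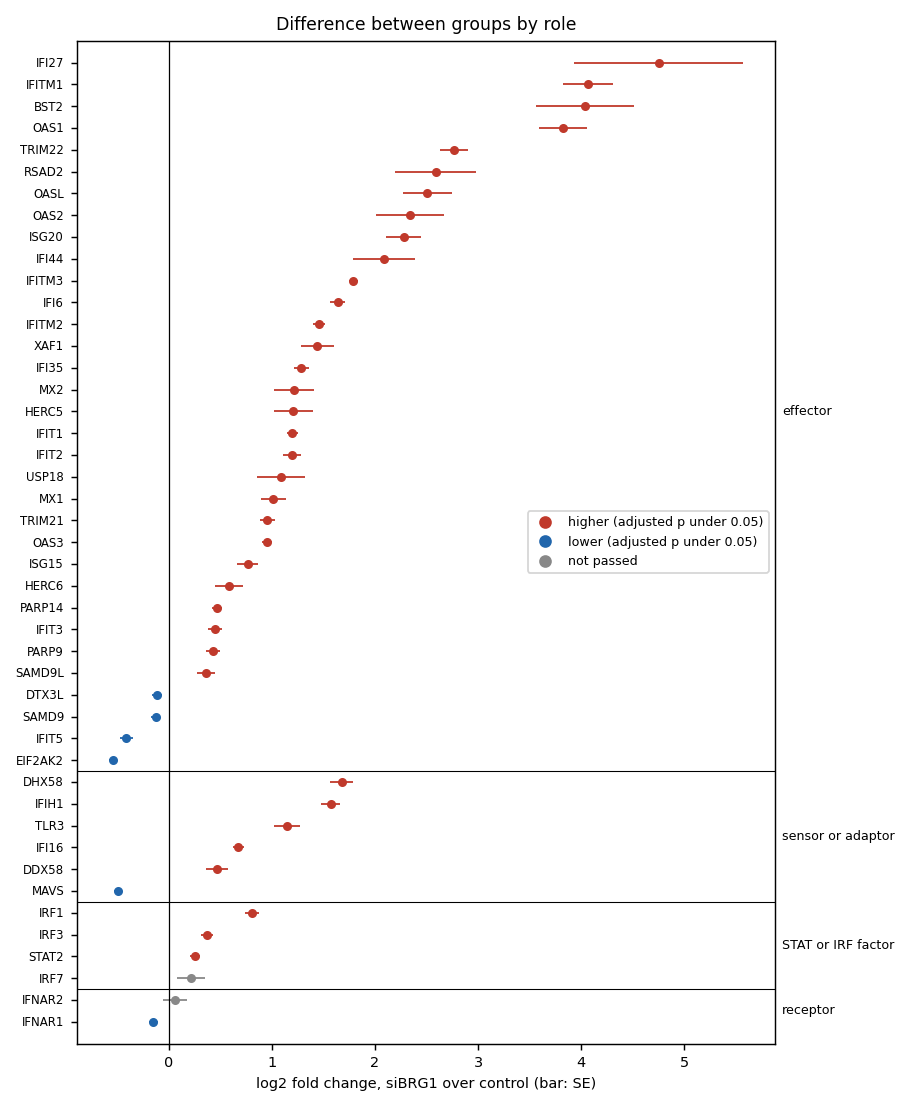
Change in siBRG1 relative to control (log2, x axis, bars are the SE) of the 45 tested genes, by role. Effectors span 4.75 (IFI27, which rests on 2 control counts) to −0.54 (EIF2AK2), and MAVS is the sensor-group gene that fell.

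Among sensors, the RIG-I family rose and MAVS, the adaptor of RIG-I and MDA5, fell. DHX58, which encodes LGP2, a regulator of the other family members, stood at 18.4, 16.9 and 20.9 CPM in siBRG1 and 6.05, 6.30 and 5.22 CPM in control (log2 fold change 1.68 with SE 0.112, adjusted p = 1.06e-13). IFIH1 (chromosome 2, 162267079 to 162318703), whose product MDA5 binds long double-stranded RNA, stood at 22.1, 22.03 and 22.7 CPM against 7.62, 7.52 and 7.39 CPM (log2 fold change 1.57 with SE 0.0933, adjusted p = 7.04e-15). The siBRG1 libraries of IFIH1 lay within 0.8 CPM of each other. DDX58, whose product RIG-I binds short RNA with a 5′ triphosphate, rose less, from 12.7, 11.4 and 10.8 CPM in control to 15.2, 14.97 and 18.4 CPM in siBRG1 (log2 fold change 0.47 with SE 0.103, adjusted p = 0.000206).

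TLR3, the endosomal receptor of double-stranded RNA, stood at 10.5, 9.80 and 10.4 CPM in siBRG1 and 4.55, 4.49 and 4.82 CPM in control (log2 fold change 1.14 with SE 0.127, adjusted p = 4.37e-09). IFI16, a nuclear sensor of DNA, stood at 86.5, 99.5 and 100.1 CPM against 61.9, 56.3 and 60.9 CPM (log2 fold change 0.67 with SE 0.0556, adjusted p = 1.04e-11). MAVS (chromosome 20, 3846799 to 3876123), the mitochondrial adaptor through which RIG-I and MDA5 signal, was at 217, 214 and 203 CPM in siBRG1 and 301, 296 and 298 CPM in control, with no overlap (log2 fold change −0.50 with SE 0.0381, adjusted p = 2.19e-12). The fall of MAVS was smaller with GC and length trends removed, at −0.28 on the log2 scale. Per kilobase of exon MAVS stood at 25.3 CPM in control, against 2.68 for DDX58, 1.47 for IFIH1, 1.52 for DHX58, 0.687 for TLR3 and 11.3 for IFI16, so it was the most abundant of the 6 there. In siBRG1 MAVS and IFI16 stood at 18.0 and 18.0 CPM per kilobase.

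The factors changed less than most effectors. STAT2, a subunit of the complex that binds the response element, stood at 92.0, 98.2 and 90.7 CPM in siBRG1 and 79.1, 78.7 and 77.9 CPM in control (log2 fold change 0.25 with SE 0.0472, adjusted p = 2.68e-05). IRF1, itself an interferon target and activator of many of these genes, rose most of the factors, from 23.1, 24.3 and 22.8 CPM in control to 38.0, 40.3 and 44.5 CPM in siBRG1 (log2 fold change 0.81 with SE 0.0694, adjusted p = 2.51e-11). IRF3, which is present before infection and is activated through MAVS, stood at 65.8, 69.7 and 60.1 CPM against 49.7, 51.7 and 49.9 CPM (log2 fold change 0.37 with SE 0.0563, adjusted p = 1.21e-06), and at a log2 fold change of 0.14 with GC and length trends removed.

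IRF7, which amplifies interferon production, stood at 6.34, 6.98 and 6.20 CPM in siBRG1 and 5.72, 5.66 and 5.40 CPM in control and did not pass (log2 fold change 0.22 with SE 0.137, adjusted p = 0.158), and its log2 fold change was −0.16 with GC and length trends removed. IRF9, the DNA-binding partner of STAT2, had 0 counts in all 6 libraries, with sense and with unstranded counts. In GENCODE 29, 48.4% of its exon bases are shared on the same strand with AL136295.5, which also had 0 counts. Reads on exons of both genes are assigned to neither in this kind of count table, and the part of that in the 0 was not tested, so these counts give no level for IRF9.

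The type I interferon receptor genes moved little. IFNAR1 stood at 127, 123 and 129 CPM in siBRG1 and 145, 137 and 139 CPM in control (log2 fold change −0.15 with SE 0.0424, adjusted p = 0.00221), and the fall was not seen with GC and length trends removed (0.0229 on the log2 scale, adjusted p = 0.597). IFNAR2 stood at 9.40, 8.78 and 8.63 CPM against 8.11, 8.92 and 8.68 CPM, with overlap between the groups (log2 fold change 0.06 with SE 0.117, adjusted p = 0.637). For IFNAR2, 44.2% of exon bases are shared with AP000295.1, and unstranded counts left it 5 to 9 counts per siBRG1 library, so its level is uncertain.

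Level in control and change were set side by side in bands of control level, per kilobase of exon. All 16 tested genes below 1 CPM per kilobase rose, with a median log2 fold change of 2.31, while 35.1% of 4080 genes in that band rose and the median there was 0.23. Of 15 genes from 1 to 10 CPM per kilobase 13 rose and 2 did not pass (median 0.95), and 37.3% of 7018 genes in that band rose. Of 14 genes at 10 CPM per kilobase or more 8 rose and 6 fell (median 0.31), and 35.4% of 4713 genes rose while 49.2% fell. All 6 genes that fell thus stood in the highest band, but the falls of DTX3L, SAMD9 and IFNAR1 were not called with GC and length trends removed. The 16 include IFI27, RSAD2 and BST2, which could be tested only because they were higher in siBRG1, and control counts enter both the level and the change.

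**Figure D5:**
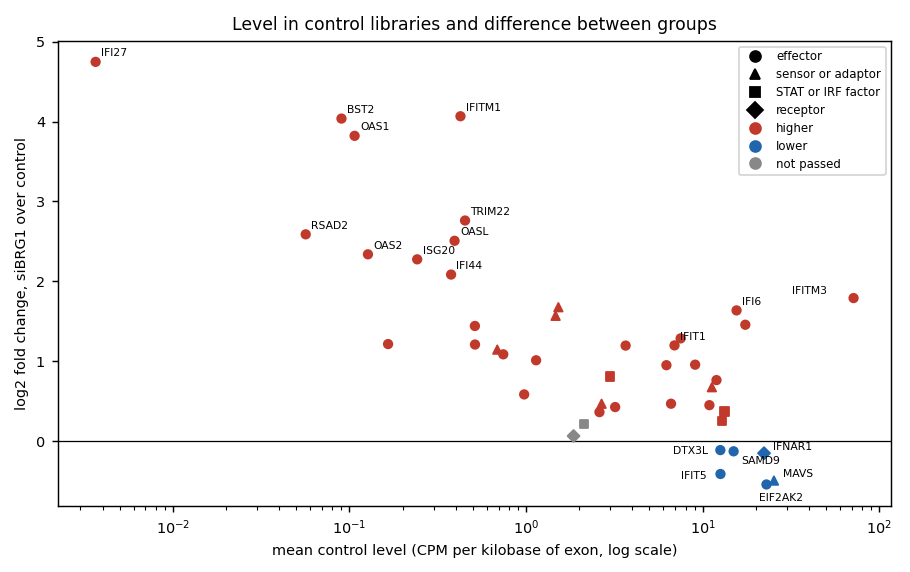
Mean control level (CPM per kilobase of exon, log axis) and log2 fold change of the 45 tested genes, with shape for role and colour for call. Genes below 1 CPM per kilobase all rose, the 6 that fell all stand above 10, and IFITM3 combines the highest control level (71.5) with a rise of 1.79. Of those below 1, IFI27, RSAD2 and BST2 could be tested only because they were higher in siBRG1. The falls of DTX3L, SAMD9 and IFNAR1 were not called with GC and length trends removed.

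Of 69 other genes of the pathway, listed with earlier results of these data known, 52 were tested, and 35 rose and 9 fell (median log2 fold change 0.51). Over all genes tested 36.1% rose and 36.5% fell, which is the share to set beside each count in this paragraph. Among 34 further interferon-stimulated genes tested 25 rose and 6 fell. GBP2, a guanylate-binding GTPase, rose most by the rule for named genes, at 18.7, 25.2 and 21.6 CPM in siBRG1 and 2.84, 3.19 and 2.74 CPM in control (log2 fold change 2.90 with SE 0.127, adjusted p = 6.18e-18). UBA7, the activating enzyme for ISG15, and DDX60, an RNA helicase linked to RIG-I, followed with log2 fold changes of 2.02 and 1.59. ZC3HAV1, which encodes the zinc-finger antiviral protein, fell most, at 65.7, 52.7 and 60.3 CPM in siBRG1 and 102, 101 and 101 CPM in control (log2 fold change −0.76 with SE 0.0568, adjusted p = 1.04e-12). DDX60L, the neighbour and relative of DDX60, and APOL2, an apolipoprotein L gene, fell with log2 fold changes of −0.76 and −0.57. Of 6 other receptor subunits and kinases 4 rose and 1, the kinase JAK1, fell (log2 fold change −0.14 with SE 0.0383, adjusted p = 0.00244). The 4 were IFNGR1 (log2 fold change 0.69), TYK2 (0.59), IFNGR2 (0.58) and IFNLR1 (0.57), and IL10RB did not pass.

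Transcripts of the interferon genes looked up were not found at this depth, with 1 exception. Other interferon genes were not looked up. Of 10 interferon genes, 9 had 0 counts in all 6 libraries: IFNB1, IFNA1, IFNA2, IFNK, IFNW1, IFNG, IFNL1, IFNL2 and IFNL3. A count of 0 allows up to 3 counts, which is 0.219 to 0.235 CPM in an siBRG1 library and 0.0618 to 0.0765 CPM in a control library. IFNE, an interferon of reproductive tract epithelium, had 8 counts in all in siBRG1 and 63 in control and did not pass (log2 fold change −1.25 with SE 0.583, adjusted p = 0.0556). CXCL10, a chemokine induced by interferon, had 6 counts in siBRG1 replicate 3 and 0 in the other 5 libraries.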

How the data were processed

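RNA-seq of 6 libraries was compared, 3 siBRG1 and 3 control. Per the labels, directional mRNA libraries were made with the same kit for all samples. The authors deposited raw counts of reads per gene for each library. The tools listed in the submitters' processing notes are STAR, cutadapt, FastQC, Trim Galore and DESeq2, on GRCh38.p12. Their versions and the release of the annotation were not given in the sources used here. GENCODE 29 held 58216 of the 58336 gene identifiers once versions were dropped. Column 4, the sense strand, was used. Rows of reads assigned to no gene stayed out (unmapped, 1.57 to 1.92% of reads, ambiguous, 3.08 to 4.18%, and the 2 kinds given in the report). The authors' deposited table of their own comparison gives log2 fold changes, their SE and adjusted p-values, and is quoted only in the closing section.

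The fit used edgeR 4.0.16 in R 4.3.3 (TMM, filterByExpr, robust quasi-likelihood fit on the group, two-sided, Benjamini-Hochberg over 15830 genes, call at 0.05). The SE is the absolute log2 fold change over the square root of F. The fit was tested on simulated data in which few genes changed, as many up as down, with a common dispersion and no batch. That setting differs from these libraries, so it does not vouch for the calls here. Libraries of a group differed beyond sampling noise (chi-square over its degrees of freedom, 2.65 to 4.55) and each counted as a replicate. Values per kilobase use the merged exon length in GENCODE 29. Alternatives were DESeq2 1.42.0, no count filter, unstranded counts, protein-coding genes alone, GC and length trends removed, a replicate block and each library left out. Genes given with all values were the sensors, factors and receptors, up to 2 rises and 2 falls per effector family, and further members chosen after their values were seen. Of the other pathway genes, the 3 largest rises and falls with a mean of at least 50 counts were named. The receptor subunits and kinases, IFNE and CXCL10 were added. The members and lists were chosen with earlier results of these data known.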

Additional observations from a re-analysis of the deposited data

How the results depend on the processing

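Across 12 alternatives the number of these genes that rose stayed between 36 and 38, of 44 to 47 tested, and SMARCA4 was called lower in each. Trends with GC content and length, once removed, left 3 of the 6 falls, and in that fit the median log2 fold change was 0.97. The number that fell ranged from 5 to 6 when each library was left out. Leaving out each library gave medians from 0.94, without siBRG1 replicate 3, to 1.14. Of the recomputed values of single genes, 523 kept their direction and side of the threshold, 8 lost their call and 5 changed sign. The 5 were IFNAR2 with unstranded counts (log2 fold change −0.39), and DTX3L (0.0494), SAMD9 (0.0519), IRF7 (−0.16) and IFNAR1 (0.0229) with GC and length trends removed. None of these 5 was past the test there, and the cause was not tested. Without a count filter the median of all genes was −0.30 and that of the members 1.10. With a replicate block 11194 genes were called against 11498, and 37 members rose and 5 fell. Same-numbered libraries deviated together at r = −0.0200, 0.0282 and 0.0105, and differently numbered ones at r from −0.041 to 0.024. With 3 libraries per group, such values cannot show whether same-numbered libraries were paired. In the authors' deposited table, 47 of the 48 genes are listed, 38 higher and 6 lower at an adjusted p under 0.05, and all 45 tested here have the same sign. IFI27 dropped out of testing in 4 of the 12 alternatives (without siBRG1 replicate 3 and without each control library). IFI27 and IFI44L had 2 control counts each, which sets the width of their intervals.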

Other observations

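Among the 24 genes that rose at least 2-fold, the highest siBRG1 value was in replicate 3 for 13 (54.2%), in replicate 2 for 9 (37.5%) and in replicate 1 for 2 (8.33%). For all 15830 genes tested these shares were 33.7, 33.5 and 32.7%. In control, replicate 3 held the highest value for 14 of the 24 (58.3%), against 31.6% of all genes tested. Over all 45 tested genes of the set, siBRG1 replicate 3 was highest for 23 (51.1%), and control replicates 1 and 3 were each highest for 17 (37.8%). These are descriptions of single libraries with no test. Without siBRG1 replicate 3, 36 of 44 genes tested rose and 5 fell.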
